A study of Brassica rapa with 36 samples.

Results

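Among the 47135 gene IDs counted in this series of Brassica rapa, 5 were expressed in the line K2 in leaf and in every kind of microspore and were all but missing from the line 49CX. A microspore is the immature pollen cell of the anther. The series calls K2 inducible and 49CX non-inducible, with regard to androgenesis, the formation of an embryo from a microspore. The members were chosen on their measured levels. A gene had to average at least 20 CPM (its counts relative to the gene counts of the library) in each of K2 leaf, late, unheated and heated microspores, and to have at most 3 counts summed over the 12 libraries of 49CX. Its level in heated K2 microspores also had to lie within 2-fold of that in unheated ones, on log2((heated + 20)/(unheated + 20)). The K2 criteria alone were met by 3703 genes, of which these 5 passed the limit in 49CX. K2 against 49CX and heated against unheated K2 are therefore descriptions here, with no test.

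The K2 groups were late unicellular microspores, microspores without heat shock, microspores after heat shock, 2-, 4- and 8-cell embryos, pollen at flowering stage, and stalk leaf. The 49CX groups were late unicellular microspores, microspores without and after heat shock, and stalk leaf. Each of the 12 groups had 3 libraries, except that 2 of the K2 pollen libraries held no gene count, which leaves 1. The labels give plants no age and no treatment other than heat shock, and they say neither how warm nor how long the heat shock was, nor how many cells or plants entered a library.

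In a developing anther the late microspore holds a single nucleus and would normally divide into pollen. Heat stress can turn some microspores of responsive Brassica plants towards an embryo instead, which is why responsive and unresponsive lines are compared. Transcripts counted in one line and hardly in another can come from a gene that is missing, silent or too different in sequence for its reads to be placed. Counts alone do not separate these, and here they cannot be told apart.

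The 5 members were BraC03g032070.1, BraC09g035200.1, BraC04g030750.1, BraC10g011230.1 and BraC05g034080.1, in order of their level in K2 leaf. No gene name stands beside an ID in the files, and 0 of the 47135 IDs matched the RefSeq gene table of assembly CAAS_Brap_v3.01, so no function, position or sequence can be given for them. All 5 were named because there are so few, after their values were seen. For the same reason tissue markers could not be looked up, and the labelled tissues were not checked against them.

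Gene counts ranged from 208244 to 1179935 in the 12 K2 leaf and microspore libraries, from 6021 to 170479 in the 9 embryo libraries and from 85651 to 536090 in the 12 libraries of 49CX. The lone pollen library held 118317. Reads outside annotated genes made up 53.4% to 57.5% in K2 leaf and 64.2% to 85.3% in 49CX leaf, and 62.7% to 83.5% in K2 and 60.1% to 81.6% in 49CX microspores. Their part in the difference between the lines was not tested. Whether replicates came from separate plants is not stated in the labels, so the spread behind each p-value may be no more than technical.

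None of the 5 was at 0 throughout 49CX. BraC09g035200.1 had 270 counts in the 12 K2 libraries and 1 count in the 12 of 49CX. BraC03g032070.1 had 389 counts in K2 and 2 in 49CX. BraC04g030750.1 had 226 in K2 and 2 in 49CX, and BraC05g034080.1 had 178 in K2 and 2 in 49CX. BraC10g011230.1 had 226 in K2 and 3 in 49CX. So each gene was counted in every 1 of the 12 K2 libraries and in no more than 3 of the 12 in 49CX.

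Relative to all gene counts, the K2 level was 125 times the 49CX level for BraC09g035200.1 (22.2 to 4940, exact 95% interval from the counts) and 89.8 times for BraC03g032070.1 (24.7 to 744). It was 52.2 times for BraC04g030750.1 (14.3 to 433), 41.1 times for BraC05g034080.1 (11.2 to 342) and 34.8 times for BraC10g011230.1 (11.7 to 169.8). These intervals reflect counting alone, as several reads can stem from 1 molecule. The rule fixed the direction, and its K2 floor and 49CX limit also forced a large ratio. Ratios and intervals are therefore descriptions of the selected genes and no test. The 49CX libraries held 2599850 gene counts together, so the limit of 3 counts corresponds to 1.15 CPM and a gene at 20 CPM would have had 51.997 counts on average. At the K2 stage means the 49CX libraries would have held 171 counts of BraC03g032070.1, 120 of BraC09g035200.1, 103 of BraC04g030750.1, 95.5 of BraC10g011230.1 and 85.0 of BraC05g034080.1.

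The few 49CX counts were scattered over samples. Leaf held 6 of the 10, with at least 1 for each gene. Unheated microspores held 3, heated microspores 1 and late microspores 0. Depth ran in the same order, with 1275303 gene counts in leaf, 596311 in unheated and 416840 in heated microspores. The late microspore libraries had the lowest total of the 49CX groups, 311396 gene counts, so that 0 counts there allow a level of up to 9.63 CPM. The K2 late means of the 5 genes lay between 35.3 and 93.0 CPM, all above that limit, as the floor of 20 CPM required.

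**Figure D1:**
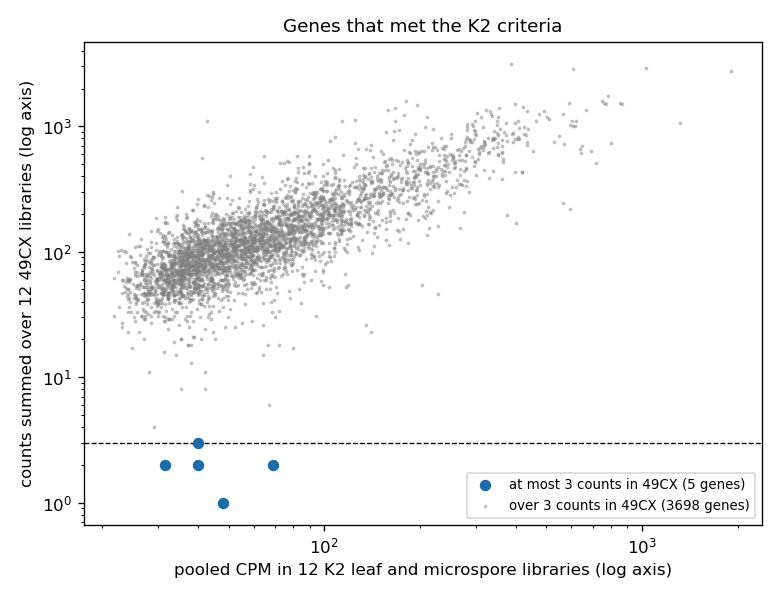
Counts summed over the 12 libraries of 49CX (log axis) against the pooled CPM in the 12 K2 leaf and microspore libraries (log axis), for the 3703 genes that met the K2 criteria. Each point is a gene, and the dashed line marks 3 counts; the 5 members (large points) lie at 1 to 3 counts, and the other genes at 4 or more, with a median of 116.

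The members were close to the thresholds of the rule. Among genes that met the K2 criteria, the nearest outside the 49CX limit were BraC06g032830.1 with 4 counts in 49CX and BraC01g031220.1 with 6. Among genes within the 49CX limit, the nearest below the K2 floor was BraC07g005620.1, with 0 counts in 49CX and a lowest K2 group mean of 19.5 CPM, in unheated microspores. The lowest K2 group mean of the members was 23.0 CPM in leaf for BraC05g034080.1, 23.1 in unheated microspores for BraC09g035200.1 and 25.3 in leaf for BraC10g011230.1. It was 36.4 for BraC04g030750.1 and 39.1 for BraC03g032070.1, both in unheated microspores. All 5 thus fell short of 40 CPM in a group, as did 58.8% of the 3698 genes that met the K2 criteria and had over 3 counts in 49CX. No gene met the floor and the 49CX limit while missing the heat bound.

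The number of members depended on how the levels were scaled. With TMM-scaled CPM (scaled by edgeR's factors, which allow for a few abundant genes taking up reads) 11 genes qualified, among them the same 5. A floor of 10 CPM gave 30 genes, and a limit of 10 counts in 49CX gave 9, each including the 5. With 0 counts required in 49CX, 0 genes qualified at 20 CPM and 6 at 10 CPM.

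The same rule with the lines exchanged gave 5 genes as well: at least 20 CPM in each 49CX group and at most 3 counts in the 12 K2 leaf and microspore libraries. Those libraries are deeper, with 5633352 gene counts together, so the limit of 3 counts is stricter in that direction. The floor and heat bound alone were met by 3396 genes in 49CX and by 3703 in K2. The 5 genes of 49CX had 0 counts in the 9 K2 embryo libraries, and the 5 members had 111. The former were chosen for few counts in K2 and the members for a floor in K2, so this contrast is a description.

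Across the K2 stages, the 5 genes did not share a pattern. BraC10g011230.1 was highest in late microspores, BraC03g032070.1 was called lower in embryos than in heated microspores, and BraC09g035200.1 was counted in every embryo library. The levels of BraC05g034080.1 overlapped between all stages next to each other in its order of means. Those of BraC04g030750.1 did too, down to 0 counts in 4-cell embryos. Levels in leaf and microspores were bounded from below by the rule, so none of the 5 could be near 0 there.

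**Figure D2:**
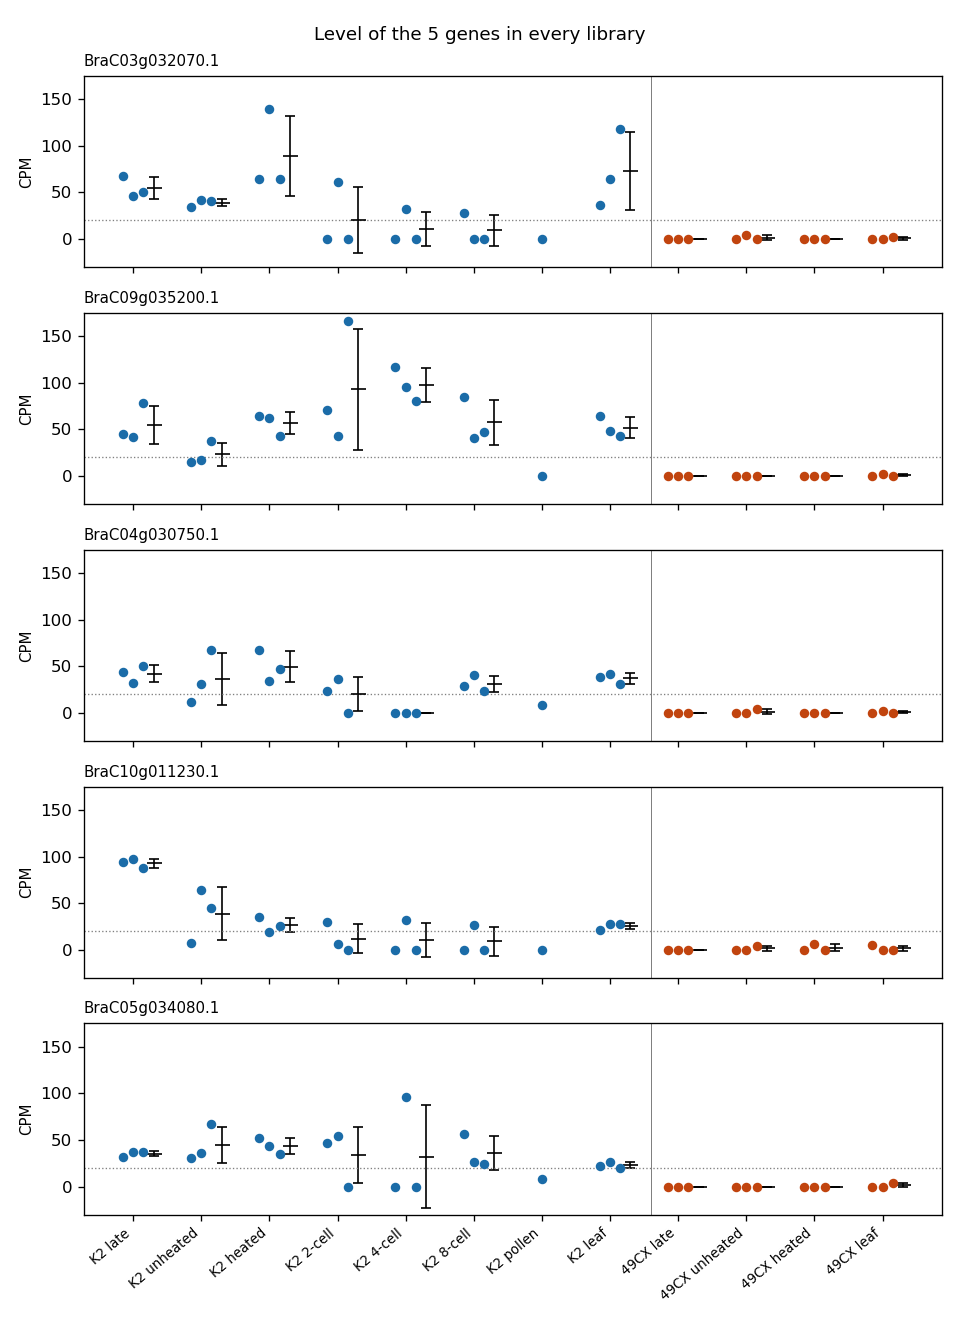
CPM of the 5 genes in every library with gene counts, 1 panel a gene, with K2 stages on the left of the vertical line and 49CX on the right. Points are libraries, black marks are the mean ± SD of 3 libraries (pollen has 1), and the dotted line is the floor of 20 CPM; 49CX lies between 0 and 6.17 CPM in every panel, and the embryo libraries scatter from 0 to 166 CPM.

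BraC10g011230.1 had 94.4, 96.9 and 87.6 CPM in the late microspore libraries. It had 7.67, 64.0 and 44.7 CPM in unheated and 34.6, 19.2 and 25.9 CPM in heated microspores, and 21.3, 27.6 and 27.1 CPM in leaf. The late libraries agreed closely and lay above all others, while the unheated libraries were the most uneven of these groups, with 2 counts in replicate 1.

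Late microspores exceeded leaf by 1.39 on the log2 scale (SE 0.44; edgeR's quasi-likelihood test on TMM-scaled counts, adjusted p = 0.00943), with no overlap of the libraries. Among all 11998 genes tested in K2, 39.3% were called in this comparison, 17.2% higher and 22.1% lower in late microspores, so 1 call among 5 genes does not stand out. Without leaf replicate 1 the adjusted p was 0.0518 in edgeR. The other 4 genes were not called, with log2 changes from -0.86 to 0.13, and the median of the 5 was -0.27 against -0.04 over all genes tested.

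Heated microspores fell below late ones for BraC10g011230.1, by a log2 change of -1.78 (SE 0.50; edgeR, adjusted p = 0.00426), again with no overlap. Of all genes tested 30.3% were called here, 14.7% higher and 15.6% lower in heated microspores. The other 4 genes had log2 changes from 0.04 to 0.55 and were not called, and the median of the 5 was 0.22 against 0.03 over all genes. Both results use the same 3 late libraries, so they are not separate evidence that the late level was high.

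Unheated against late microspores gave 0 calls among the 5 genes, where edgeR called 23.0% of all genes, 10.8% higher and 12.1% lower. None of the 5 had an unadjusted p under 0.05 in edgeR, and DESeq2's Wald test called 0 as well. The log2 changes closest to a call were -0.91 for BraC09g035200.1 (SE 0.48, adjusted p = 0.168, edgeR) and -0.89 for BraC10g011230.1 (SE 0.48, adjusted p = 0.178, edgeR). Scaled by library size alone, both were called (adjusted p = 0.0432 and 0.0490, edgeR), while that scaling moved the median of all genes to -0.34, against -0.03 with TMM. BraC10g011230.1 was also called when these 6 libraries alone were fitted (log2 change -0.88, adjusted p = 0.0436, edgeR). The median of the 5 was -0.21 with TMM.

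The split of calls over all genes moved with the scaling in these comparisons. Late microspores against leaf gave 2062 genes higher and 2657 lower with TMM, and 3431 and 1838 by library size alone. Unheated against late microspores gave 1301 higher and 1456 lower with TMM, and 1023 and 2284 by library size alone.

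BraC09g035200.1 had 45.3, 41.5 and 78.4 CPM in late, 15.3, 16.7 and 37.3 CPM in unheated and 64.8, 62.4 and 43.2 CPM in heated microspores. In leaf it had 63.9, 48.6 and 42.4 CPM. The unheated libraries were lower than all of the others, with 4, 6 and 10 counts behind them. Heated exceeded unheated microspores by 0.83 on the log2 scale of the rule, near its bound of 1. The rule allowed no larger difference, though no gene was left out by that bound alone. Without unheated replicate 3 the gene dropped out of the set.

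In embryos BraC09g035200.1 had 70.4, 42.6 and 166 CPM at 2 cells, 117, 95.7 and 80.9 CPM at 4 cells and 85.2, 40.2 and 47.6 CPM at 8 cells. It was the only member counted in all 9 embryo libraries, from 1 to 12 counts in each. The highest value rests on 1 count in a library of 6021, so its size is not resolved. Embryos against heated microspores gave a log2 change of 0.31 (SE 0.41, adjusted p = 0.566, edgeR), which was not called.

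BraC03g032070.1 was the highest member in leaf, with 36.2, 64.4 and 119 CPM, and it was uneven there. It had 68.0, 46.1 and 50.7 CPM in late, 34.5, 41.7 and 41.0 CPM in unheated and 64.8, 139 and 64.8 CPM in heated microspores. Heated lay above unheated libraries without overlap, by 0.89 on the log2 scale of the rule, and without heated replicate 1 or replicate 3 the difference exceeded the heat bound and the gene dropped out of the set. Late also lay above unheated libraries without overlap in CPM, though on TMM-scaled counts the log2 change of unheated against late was -0.21 (SE 0.57, adjusted p = 0.838, edgeR).

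In embryos BraC03g032070.1 was counted in 3 of 9 libraries, at 60.8 CPM in 2-cell replicate 2, 31.9 CPM in 4-cell replicate 2 and 28.4 CPM in 8-cell replicate 1. The other 6 held 0 counts, and in the shallowest of them 0 counts allow up to 498 CPM. Over the 3 stages, embryos were lower than heated microspores by a log2 change of -2.45 (SE 0.69; edgeR, adjusted p = 0.00596), and all embryo libraries were below all heated ones. The log2 change was -4.55 without 2-cell replicate 2, -3.97 without 4-cell replicate 2 and -3.97 without 8-cell replicate 1, the libraries that held its counts. It was not called with 2-cell embryos alone (-1.25, adjusted p = 0.195, edgeR) or with 4-cell embryos alone, where the change was larger (-2.95, adjusted p = 0.139). With 8-cell embryos alone it was called (-3.17, adjusted p = 0.0193).

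BraC04g030750.1 had 43.4, 32.3 and 50.7 CPM in late, 11.5, 30.6 and 67.1 CPM in unheated and 67.0, 33.6 and 47.5 CPM in heated microspores, with 38.4, 42.0 and 30.5 CPM in leaf. These groups overlapped throughout. In embryos it had 23.5, 36.5 and 0 CPM at 2 cells, 0 CPM in each library at 4 cells, and 28.4, 40.2 and 23.8 CPM at 8 cells.

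Embryos were called lower than heated microspores for BraC04g030750.1 too, with a fitted log2 change of -2.55 (SE 0.97; edgeR, adjusted p = 0.0328). This estimate turned on the 4-cell libraries, which held 76979 gene counts together, so that 0 counts there allow up to 39.0 CPM. With 2- and 8-cell embryos only, the change was -0.51 and not called (adjusted p = 0.438, edgeR). Nor was it called with the 9 embryo libraries as 1 group (-0.79, adjusted p = 0.221, edgeR) or without both shallowest embryo libraries (-2.58, adjusted p = 0.0502). The call was also lost, with changes about as large, without heated replicate 1 (-2.20, adjusted p = 0.125), 4-cell replicate 2 (-2.59, adjusted p = 0.0525) or 4-cell replicate 3 (-2.59, adjusted p = 0.0650). The call for this gene therefore depended on which libraries entered, and on 4-cell libraries too shallow to resolve a level of 20 CPM.

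BraC05g034080.1 was the lowest member in leaf, with 22.4, 26.3 and 20.3 CPM. It had 32.1, 36.9 and 36.9 CPM in late, 30.7, 36.1 and 67.1 CPM in unheated and 51.9, 43.2 and 34.6 CPM in heated microspores. Late microspores lay above leaf without overlap in CPM, but on TMM-scaled counts the log2 change was 0.13 (SE 0.47, adjusted p = 0.871, edgeR). In embryos it had 46.9, 54.7 and 0 CPM at 2 cells, 0, 95.7 and 0 CPM at 4 cells and 56.8, 26.8 and 23.8 CPM at 8 cells. Embryos against heated microspores gave a log2 change of -0.04 (SE 0.49, adjusted p = 0.972, edgeR), which was not called. That value rests on the 3 counts of 4-cell replicate 2, without which it was -2.07 (adjusted p = 0.162, edgeR), also not called.

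BraC10g011230.1 was sparse in embryos, with counts in 4 of 9 libraries. It had 29.3 and 6.08 CPM in 2-cell replicates 1 and 2, 31.9 CPM in 4-cell replicate 2 and 26.8 CPM in 8-cell replicate 2. Its log2 change from heated microspores was -1.09 (SE 0.72, adjusted p = 0.229, edgeR), which was not called. Single libraries decided this: the change was -2.60 without 8-cell replicate 2, where it was called (adjusted p = 0.0434, edgeR), and -2.60 without 4-cell replicate 2, where it was not (adjusted p = 0.0950).

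Together, embryos against heated microspores gave 2 calls among the 5 genes, both lower. Among all genes tested 37.6% were called, 13.3% higher and 24.3% lower. The median log2 change of the 5 was -1.09 against -0.50 over all genes tested. The floor of 20 CPM applied to heated microspores and not to embryos, which tilts the members towards lower values in embryos. Fitted on the embryo and heated libraries alone, 0 of the 5 passed the low-count filter.

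**Figure D3:**
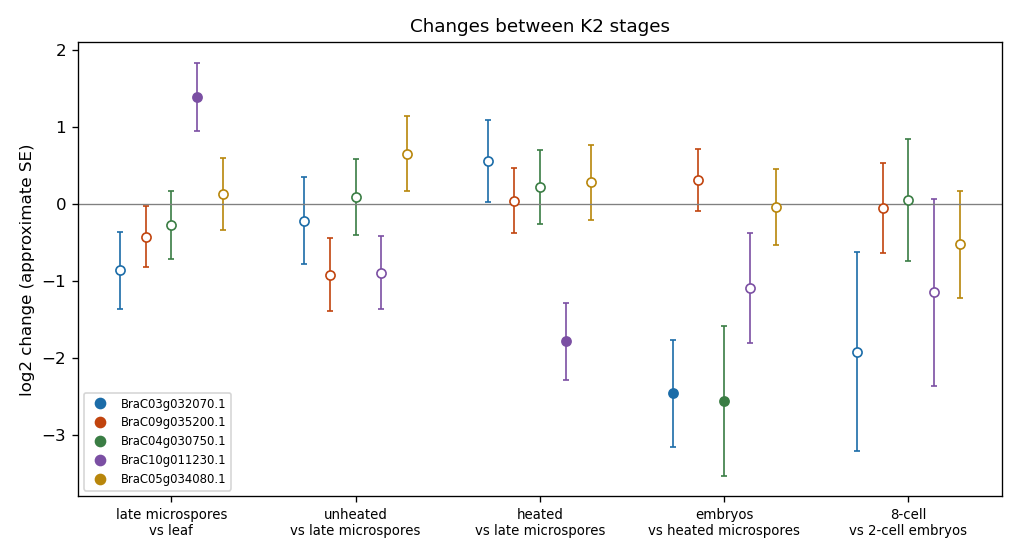
Log2 changes of the 5 genes between K2 stages from the edgeR fit, with approximate standard errors as bars. Filled points were called at an adjusted p under 0.05 and open points were not; the 4 filled points are BraC10g011230.1 in late microspores against leaf (1.39) and heated against late microspores (-1.78), and BraC03g032070.1 (-2.45) and BraC04g030750.1 (-2.55) in embryos against heated microspores, of which the last was lost when 4-cell embryos were left out.

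Between 8- and 2-cell embryos 0 of the 5 genes were called, where 1.02% of all genes were (edgeR), 0.575% higher and 0.442% lower at 8 cells. None had an unadjusted p under 0.05 in edgeR, and DESeq2's Wald test called 0 as well. The log2 changes ran from -1.92 (SE 1.29) for BraC03g032070.1 to 0.05 (SE 0.79) for BraC04g030750.1. That of BraC03g032070.1 was 4.22 without 2-cell replicate 2 and -6.08 without 8-cell replicate 1, so its direction rests on single libraries. Differences of several fold would not be resolved at these counts, which were at most 12 a gene and library in embryos.

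The embryo libraries were not used by the rule, so the share of the 5 genes there was not set by it. The 5 genes together took 0.0179% ± 0.00189 of gene counts at 2 cells. They took 0.0151% ± 0.00921 at 4 cells, and at 8 cells the share was 0.0143% ± 0.00524 (SD, n = 3). In the libraries behind the rule they took 0.0281% ± 0.00254 in late, 0.0182% ± 0.00790 in unheated and 0.0266% ± 0.00436 in heated microspores, and 0.0210% ± 0.00284 in leaf (SD, n = 3). Every embryo library held at least 1 of the 5 genes, with a lowest share of 0.00809%. In 2-cell replicate 3 and in 4-cell replicates 1 and 3 the only member counted was BraC09g035200.1. The share there therefore describes that gene and not the set. The highest share in any 49CX library was 0.000836%, but the rule capped the 49CX counts, so setting embryos against it is a description. In 2-cell replicate 3 and 4-cell replicate 1 the share rests on 1 count, and its exact 95% binomial interval starts at 0.000420% and 0.000296%, below that 49CX share. In the other 7 embryo libraries the interval starts at 0.00167% or higher. Since the rule capped the 49CX share, these bounds are no test of embryos against 49CX.

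The number of genes detected differed between embryo libraries, as did depth. Both 2-cell replicate 3 and 4-cell replicate 1, with 6021 and 8549 gene counts, held 1 of the 5 genes. So did 4-cell replicate 3, with 37097, while 4-cell replicate 2 held 4 with 31333, and 2-cell replicate 2 held all 5 with 164510. Genes that met the K2 criteria and were over 3 counts in 49CX were detected in 24.3% to 96.7% of cases in the same 9 libraries.

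Pollen stood lower. Its lone library held 1 count each of BraC04g030750.1 and BraC05g034080.1 and 0 of the other 3, for a share of 0.00169%. A count of 0 there allows up to 25.4 CPM, so a single gene at the floor of the rule could have been missed. In the same library 43.1% of the 3698 other genes that met the K2 criteria were detected, and their median was 0 CPM. A low level in pollen was therefore not particular to the members. With 1 library there is no replicate check, and in bulk samples fewer expressing cells and less RNA per cell cannot be told apart.

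The IDs of the 5 genes carry 5 different prefixes, from BraC03 to BraC10, and none lay within 10 IDs of another in the order of IDs. Order of IDs stands in for position here, since no coordinates were used. Of the 5 IDs on either side of each member, 10 had at least 50 counts in the 12 K2 libraries, and 3 of these 10 had at most 3 counts in 49CX, a share of 30%. Among all 18655 IDs with at least 50 counts in K2 the share was 2.66%, or 497 IDs. At a pooled level of at least 20 CPM in K2, 5 of the flanking IDs qualified. All 5 of these were over the limit in 49CX, with 53 to 519 counts, so the result depended on the cut. The comparison at 50 counts was chosen after the values were seen and was not tested.

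The 3 neighbours belonged to 2 of the genes. Beside BraC09g035200.1, BraC09g035180.1 had 99 counts in K2 and 3 in 49CX, and BraC09g035260.1 had 91 in K2 and 1 in 49CX. Beside BraC04g030750.1, BraC04g030770.1 had 60 counts in K2 and 0 in 49CX. The low counts did not extend over the whole stretch. The next ID before BraC09g035180.1, BraC09g035170.1, had 312 counts in K2 and 59 in 49CX, and BraC04g030790.1 had 83 in K2 and 79 in 49CX. Around BraC10g011230.1 no neighbour reached 50 counts in K2, and the highest had 26 in K2 and 10 in 49CX. Beside BraC05g034080.1 the only neighbour with at least 50 counts in K2 had 128 in K2 and 53 in 49CX. Those beside BraC03g032070.1 had 233 and 952 in K2, and 73 and 519 in 49CX, and both came before it. The other IDs before it had 2, 34 and 1 counts in K2, and 2, 10 and 1 in 49CX. The 5 IDs after it had 8, 12, 0, 15 and 5 counts in K2 and 0 in 49CX, too few in K2 to be read by the cut of 50.

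**Figure D4:**
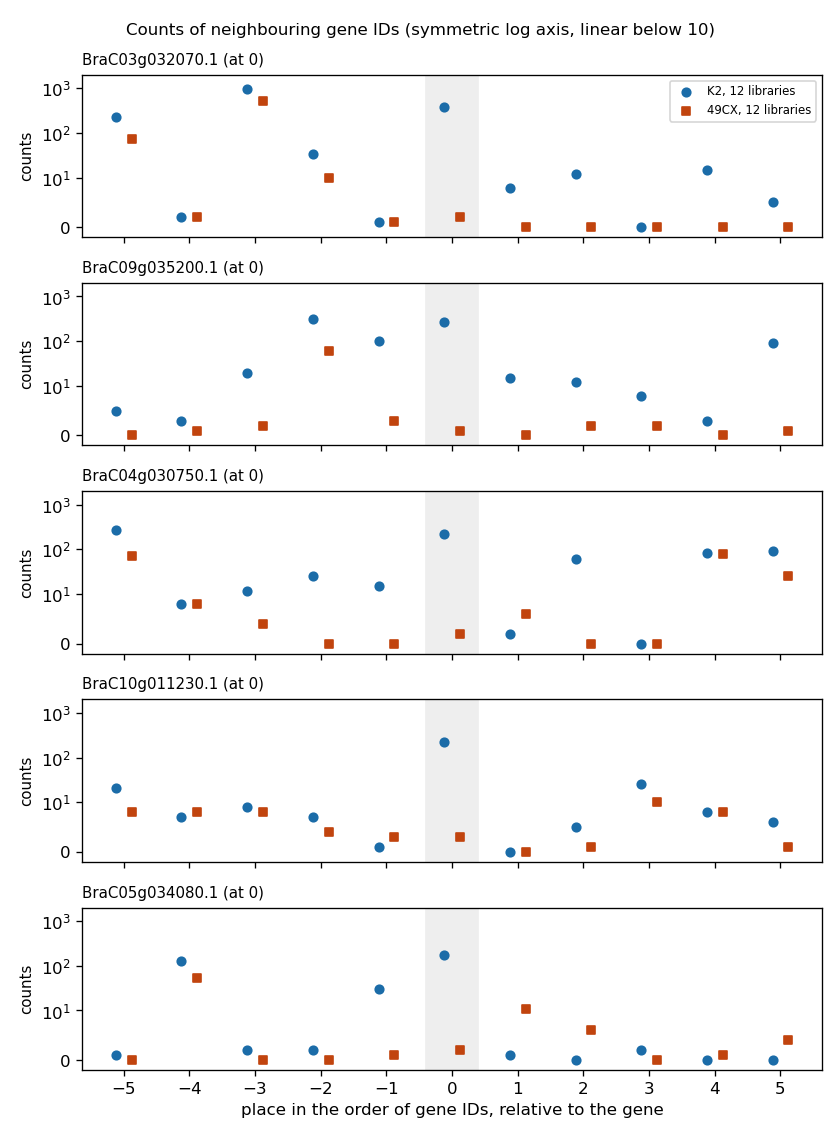
Counts of the 5 gene IDs on either side of each member in the order of IDs, summed over 12 K2 libraries (circles) and 12 49CX libraries (squares), on a symmetric log axis that is linear below 10. The shaded place 0 is the member itself, with 178 to 389 counts in K2 and 1 to 3 in 49CX; BraC09g035200.1 and BraC04g030750.1 have further neighbours with at least 50 counts in K2 and 0 to 3 in 49CX.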

How the data were processed

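The deposited tables hold unnormalized read counts for each gene ID, 1 table per library. The submitters' processing notes list Trim Galore, HISAT2, HTSeq and Picard. Tool versions, genome build, annotation and the strand setting used in counting were not given in the sources used here. Library preparation was strand-specific, per the labels' protocols. The deposited tables list 0 reads as aligned to several places, and near-identical gene copies could not be checked. Library sizes exclude reads outside genes.

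CPM are counts divided by the library's gene counts and scaled to the usual common total. Genes were tested in 1 fit of the 21 K2 libraries other than pollen with edgeR 4.0.16 (R 4.3.3; quasi-likelihood, robust, TMM, filterByExpr, 11998 genes), with Benjamini-Hochberg adjustment over all genes and a call at an adjusted p under 0.05. The embryo contrast is the mean of the 3 stages on the log scale. SE is the log2 change divided by the root of the F statistic. The fit was tested on simulated data with 200 genes changed 4-fold. For late microspores against leaf it recovered 151 of them, with 9 false calls among 160. For embryos against heated microspores it recovered 149, with 16 false calls among 165. The changed genes were drawn from the better counted ones, each at the same level in all groups before the change. These rates therefore do not describe genes as sparse as the 5 members were in embryos. All 5 genes passed the low-count filter. DESeq2 1.42.0 was an alternative. Named were the called genes without overlap and the 2 highest in K2 leaf, and then all 5 members. The members, comparisons and settings were chosen with earlier results of these data known. Further settings for embryos, and the comparison of neighbouring IDs, were added after the values were seen.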

Additional observations from a re-analysis of the deposited data

How the results depend on the processing

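The number of genes in the set, 5, ranged from 4 to 7 when each library was left out in turn. It was 30 with a floor of 10 CPM, 0 with a floor of 40 CPM, 0 with no count allowed in 49CX, 9 with up to 10 counts there, 3 with a heat bound of 0.5 and 11 with TMM-scaled CPM.

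Calls among the 5 genes were kept in number for heated against late microspores under every setting run. For late microspores against leaf the number ranged from 0 to 1 when libraries were left out. For unheated against late microspores it was 2 by library size alone and 1 with only the groups compared, against 0. For embryos against heated microspores, 2 in the fit reported, it was 0 with only the groups compared, since no member passed the low-count filter there, and 1 to 3 when libraries were left out. In settings added after seeing the data it was 1 without both shallowest embryo libraries, 1 with 2- and 8-cell embryos only, 0 with 2-cell, 0 with 4-cell and 1 with 8-cell embryos alone, and 1 with all embryo libraries as 1 group.

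Calls over all genes moved by more than 1.5 times in some settings. With no low-count filter they were 8094 against 4719 for late microspores against leaf, 8332 against 4511 for embryos against heated microspores and 267 against 122 for 8- against 2-cell embryos. With only the groups compared they were 7786, 1810 and 0. With 4-cell embryos alone in the contrast there were 1653. Leaving out libraries gave 1823 to 2347 calls for unheated against late microspores (2757 with all) and 72 to 236 for 8- against 2-cell embryos. By library size alone the median log2 change of all genes was 0.44 for late microspores against leaf (-0.04 with TMM) and -0.67 for embryos against heated microspores (-0.50).

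The deviations of same-numbered replicates had a median correlation of 0.000985 and a range of -0.0772 to 0.340 over 63 pairs. Those of differently numbered replicates had a median of -0.00190 and a range of -0.364 to 0.255 over 126 pairs. The medians are over all groups, so they cannot show whether particular groups were paired, which was not tested. A replicate block left the calls among the 5 genes at 1, 0, 1, 2 and 0 in the order of comparisons given, and those over all genes at 4683, 2742, 3600, 4394 and 141.

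Thinned to the 6021 counts of the shallowest library, the median number of the 5 genes detected was 1 in K2 leaf and microspore libraries and 1 in embryos, against 5 and 4 at full depth. Depth thus limits what single embryo libraries can show.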
